A study of Mus musculus with 39 samples.

Results

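The 34 genes described here carry sugar through glycolysis and pyruvate into the mitochondrion. They were taken by name from the 56980 genes of the count files, and all 34 were among the 14658 genes abundant enough to be tested. Each was measured by RNA sequencing of tissue scraped from the inside of the proximal small intestine of 39 mice. The study asked what happens when part of the dietary sugar of young mice is lactose, or galactose with glucose, in place of glucose alone. All mice were C57BL/6JRccHsd females weaned at day 21, fed their diet for 3 weeks and killed at day 42 without fasting, with 13 mice per diet. Lactose-fed mice received 32% of dietary energy as lactose. Galactose-fed mice received 16% as galactose and 16% as glucose. Glucose-fed mice, the common control, received 32% as glucose. All 3 diets are also listed with 32% of energy as starch, 3% as fructose, 20% as protein and 20% as fat. Together with the 32% of test sugar these listed shares exceed the whole of dietary energy. The small intestine was divided at its midpoint, the first 2 cm of duodenum were left out, and the rest of the upper part was scraped to collect mainly enterocytes. Such scrapings are a mixture, in which fewer cells of a type and less RNA per cell cannot be told apart.

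Glycolysis splits a phosphorylated hexose into pyruvate, with control points at hexokinase, phosphofructokinase and pyruvate kinase, each encoded by several isoform genes. Pyruvate is then reduced to lactate, or enters the mitochondrion through a carrier made of the Mpc1 and Mpc2 proteins and is oxidised by the pyruvate dehydrogenase complex, which pyruvate dehydrogenase kinases switch off by phosphorylation. In the small intestine lactase splits lactose into glucose and galactose, and galactose joins glycolysis after conversion to glucose phosphates, so that it bypasses hexokinase.

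Libraries held 19685385 to 21350610 reads counted to genes, and 10.1% to 15.7% of the entries counted were not assigned to a gene. Levels are given as CPM, the read count scaled to the size of the library, and a difference is a log2 fold change with its standard error (SE) from edgeR. A gene was called when its p-value, adjusted over all 14658 genes, was below 0.05. Enterocyte markers dominated the scrapings, with 14 genes that together held medians of 83663 CPM in lactose-fed mice, 74856 CPM in galactose-fed mice and 76966 CPM in glucose-fed mice. The library galactose 4 stood apart: its 8 pancreatic acinar markers summed to 36612 CPM, against a median of 31.5 CPM over the galactose-fed mice. In galactose 1, smooth muscle markers were highest of all libraries at 1027 CPM. Where leaving out either library ended a call, the value without it is given beside the result.

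The levels of the 34 genes differed widely once scaled to transcript length. Gapdh, the glyceraldehyde-3-phosphate dehydrogenase, was the most abundant at 2451 CPM per kilobase (mean over 39 mice). It was followed by Ldha at 1170, Pkm at 747, Eno1 at 692, Tpi1 at 662 and Aldoa at 442 CPM per kilobase, all single dominant enzymes of their steps. At the other end were Hk3 at 0.703, Pfkfb1 at 0.632 and Ldhb at 0.552 CPM per kilobase. Neighbours in this order, such as Pkm, Eno1 and Tpi1, overlapped in their ranges over mice. All 34 genes together summed to medians of 15556 CPM in lactose-fed mice, 14157 CPM in galactose-fed mice and 15578 CPM in glucose-fed mice. The spread between mice of the same diet also differed by gene. The coefficient of variation of the CPM, averaged over the 3 diets, was highest for Ldhb at 85.4% and Aldoc at 44.5%, and lowest for Pfkp at 7.75% and Pdha1 at 7.93%.

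**Figure D1:**
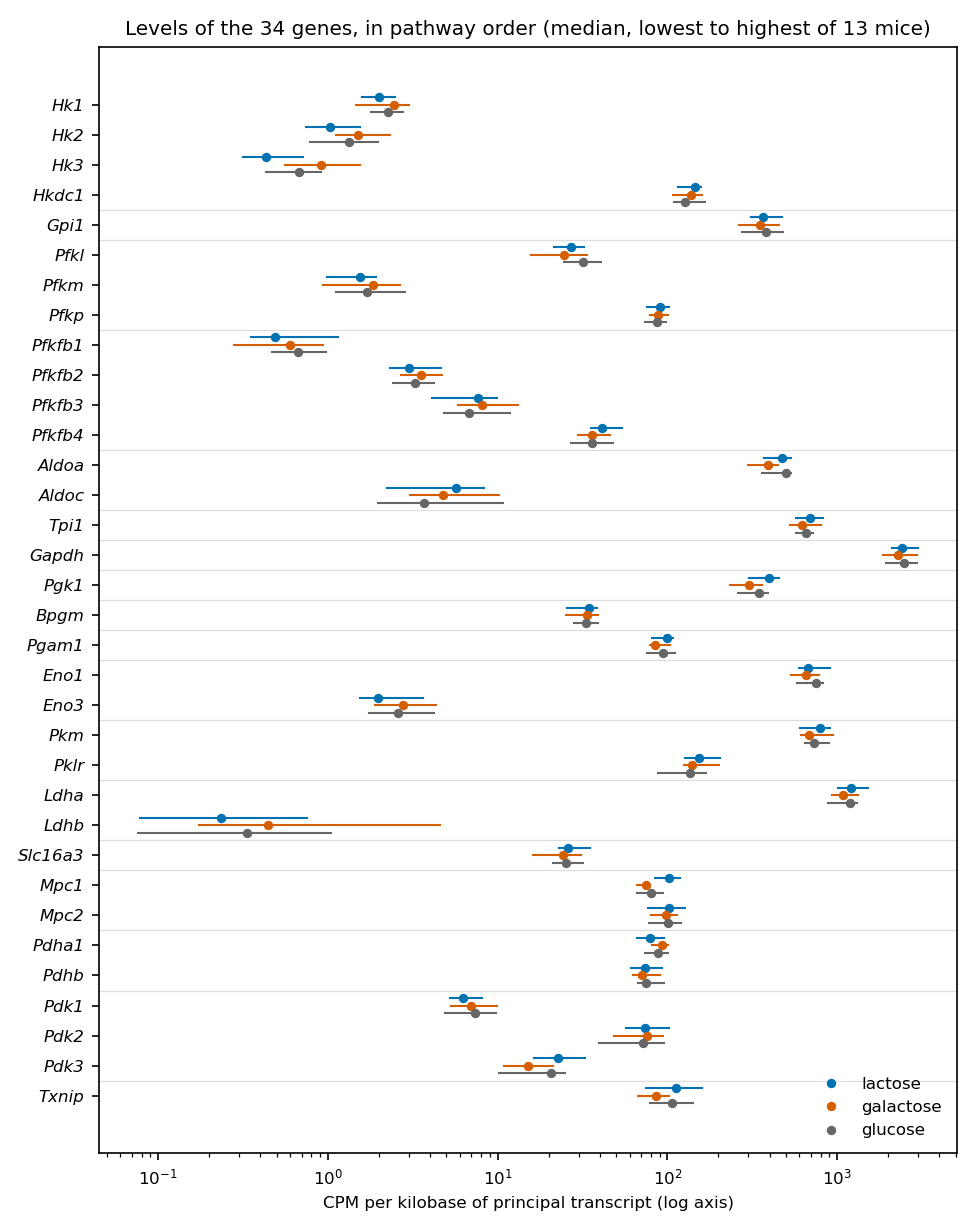
Level of each gene in CPM per kilobase (log axis), in pathway order from top to bottom, for lactose-fed (blue), galactose-fed (orange) and glucose-fed mice (grey). Points are medians and lines run from the lowest to the highest of 13 mice; Gapdh sits at the high end and Ldhb at the low end in every diet.

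Most of the pathway did not separate the diets, and 19 of the 34 genes were called in no comparison. In galactose-fed against glucose-fed mice, 4 genes were called (11.8%), Hk3 higher and Pfkl, Aldoa and Pgk1 lower. Over all tested genes 4.07% were called in this comparison, 1.21% higher and 2.87% lower. In lactose-fed against glucose-fed mice, 5 genes were called (14.7%), Mpc1 higher and Hk2, Hk3, Eno3 and Pdha1 lower. The share over all tested genes was 15.6% there, 8.73% higher and 6.84% lower, so the 34 genes were called about as often as any others. In lactose-fed against galactose-fed mice, 14 genes were called (41.2%), of which 7 were higher (Pfkfb4, Aldoa, Pgk1, Pgam1, Mpc1, Pdk3 and Txnip) and 7 lower (Hk1, Hk2, Hk3, Pfkfb2, Eno3, Ldhb and Pdha1). Over all tested genes 30.9% were called, 15.9% higher and 15% lower. A test of any difference between the 3 diets called 14 of the 34 genes, against 30.3% of all tested genes. The median log2 fold change of the 34 genes was −0.04 in galactose-fed against glucose-fed mice, 0.03 in lactose-fed against glucose-fed mice and 0.05 in lactose-fed against galactose-fed mice. Over all tested genes these medians were −0.003, −0.03 and −0.02. Lactose-fed and galactose-fed mice were both set against the same glucose-fed mice, so these comparisons share samples.

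**Figure D2:**
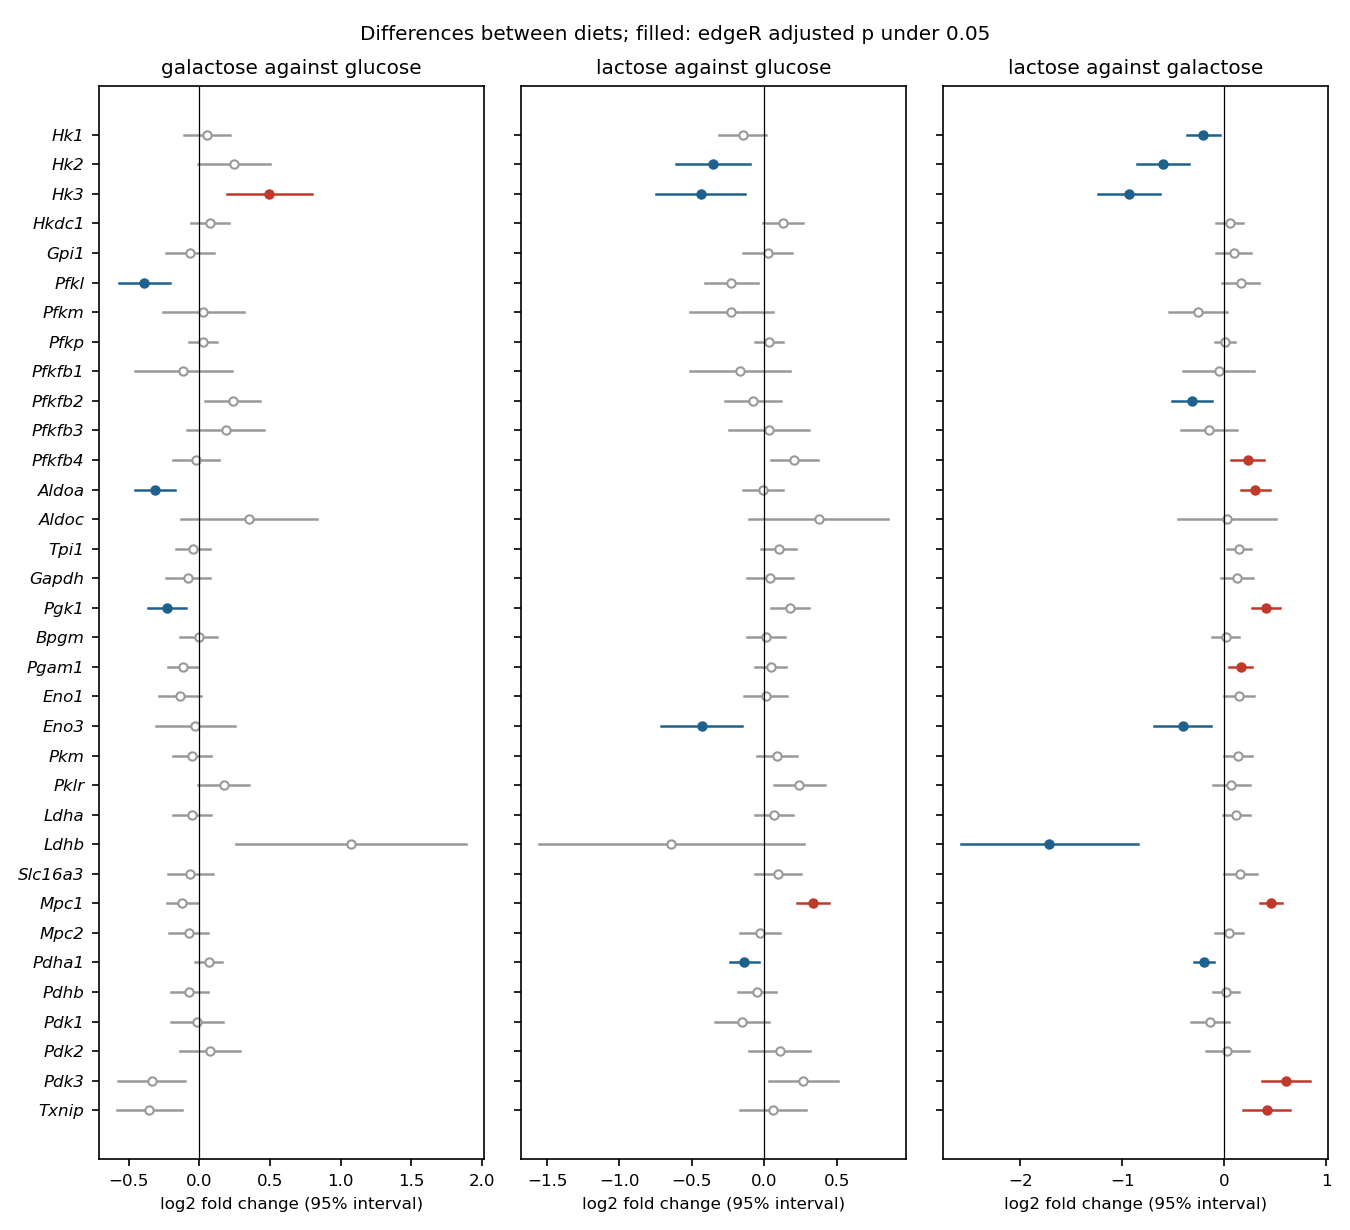
Log2 fold change of each gene with its 95% interval in the 3 comparisons, genes in pathway order. Filled points passed the adjusted threshold (red higher, blue lower in the first-named diet): 4 in galactose against glucose, 5 in lactose against glucose and 14 in lactose against galactose. The horizontal scales of the 3 panels differ.

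At the first step, nearly all hexokinase message came from Hkdc1, a hexokinase-domain gene related to Hk1 to Hk3. It made up 95.7% to 98.0% of the length-scaled level of the step across the 39 mice. Hkdc1 ranged from 405 to 558 CPM (median 515) in lactose-fed mice, from 377 to 565 CPM (median 483) in galactose-fed mice and from 384 to 589 CPM (median 446) in glucose-fed mice. These ranges overlapped almost fully, and Hkdc1 was not called in any comparison. The 95% interval of its log2 difference between lactose-fed and galactose-fed mice was −0.08 to 0.19. The called genes of this step were the 3 classical hexokinases, all present at low levels.

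Hk2, the insulin- and hypoxia-responsive hexokinase of muscle and many tumours, ranged from 4.09 to 8.56 CPM (median 5.70) in lactose-fed mice. In galactose-fed mice it ranged from 6.14 to 12.8 CPM (median 8.29), and in glucose-fed mice from 4.33 to 10.9 CPM (median 7.34). All 13 lactose-fed mice lay below the galactose-fed mean and 9 lay below every galactose-fed mouse, although the ranges overlapped. Hk2 fell by 0.60 (SE 0.13 on the log2 scale, edgeR adjusted p = 0.000339) in lactose-fed against galactose-fed mice. Against glucose-fed mice it was also called, with −0.35 (SE 0.13, edgeR adjusted p = 0.0482, lower in 12 of 13 mice), a call that ended on leaving out any of 17 of the 39 libraries (highest adjusted p = 0.0950).

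Hk3, a hexokinase known mainly from myeloid blood cells, was the least abundant hexokinase and moved in all 3 comparisons. It ranged from 1.02 to 2.31 CPM (median 1.40) in lactose-fed mice, from 1.81 to 4.95 CPM (median 2.93) in galactose-fed mice and from 1.39 to 2.94 CPM (median 2.18) in glucose-fed mice. Galactose-fed mice were highest and lactose-fed mice lowest, and neighbouring ranges overlapped. In lactose-fed against galactose-fed mice Hk3 fell by 0.93 (SE 0.15 on the log2 scale, edgeR adjusted p = 9.61e-06), lower in 13 of 13 mice. Galactose-fed mice were higher than glucose-fed mice by 0.50 (SE 0.15, edgeR adjusted p = 0.0453, higher in 12 of 13 mice) and lactose-fed mice lower than glucose-fed mice, at −0.44 (SE 0.15, edgeR adjusted p = 0.0428, lower in 10 of 13 mice). The last 2 calls were close to the threshold. Leaving out any of 16 libraries ended the first, galactose 4 among them (0.48, adjusted p = 0.0649), and leaving out any of 14 ended the second.

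Hk1, the widely expressed brain-type hexokinase, ranged from 6.16 to 9.55 CPM (median 7.73) in lactose-fed mice, from 5.68 to 11.5 CPM (median 9.51) in galactose-fed mice and from 6.96 to 10.6 CPM (median 8.66) in glucose-fed mice. The groups overlapped throughout. Its difference of −0.20 (SE 0.08 on the log2 scale, edgeR adjusted p = 0.0499, lower in 11 of 13 mice) between lactose-fed and galactose-fed mice only just passed, and leaving out any of 23 libraries ended the call, among them galactose 1 (−0.21, adjusted p = 0.0631) and galactose 4 (−0.21, adjusted p = 0.0607).

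Markers of some other cell types moved in the same comparison as these low hexokinases. In lactose-fed against galactose-fed mice 30.9% of all tested genes were called. Lists with few calls there were T cell (0 of 8 tested), enteroendocrine (0 of 8) and tuft (0 of 5). Goblet (1 of 7), Paneth (1 of 7) and crypt (2 of 12) markers also had few. Myeloid markers (13 genes, none at 0 throughout) summed to 136 to 254 CPM in lactose-fed mice, 181 to 332 CPM in galactose-fed mice and 142 to 250.3 CPM in glucose-fed mice. Of 11 tested, 8 were lower and 1 higher in lactose-fed against galactose-fed mice. Fibroblast markers (8 genes) summed to 410 to 712 CPM, 585 to 839 CPM and 419 to 681 CPM in lactose-fed, galactose-fed and glucose-fed mice, and 5 of 7 tested were lower in lactose-fed against galactose-fed mice. In the same comparison 4 of 7 endothelial markers were lower. All 5 erythrocyte markers and 2 of 6 tested B and plasma cell markers (33.3%) were higher. The part of these cells in the hexokinase differences was not tested for each gene. With a score of smooth muscle and fibroblast markers in the fit, an alternative chosen after seeing the data, Hk2 kept −0.49 (adjusted p = 0.0428) and Hk3 kept −0.76 (adjusted p = 0.00732), while Hk1 came to −0.04 (adjusted p = 0.865). This score holds no myeloid marker, so it does not measure myeloid content. The score itself differed by diet, with means of −0.61 in lactose-fed, 0.61 in galactose-fed and −0.009 in glucose-fed mice (SD 0.56, 0.67 and 0.67). Diet and score therefore cannot be fully told apart, here or wherever this score is used below. With this score the calls of Hk2 and Hk3 in lactose-fed against glucose-fed mice ended (adjusted p = 0.179 and 0.170), as did that of Hk3 in galactose-fed against glucose-fed mice (adjusted p = 0.176).

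Glucose-6-phosphate isomerase, encoded by Gpi1, averaged 1092 ± 124 CPM in lactose-fed mice, 1025 ± 175 CPM in galactose-fed mice and 1074 ± 163 CPM in glucose-fed mice (SD, n = 13 each). Differences between these means were smaller than the spread between mice.

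Phosphofructokinase, the committed step, was carried mainly by Pfkp, the platelet-type isoform, with 68.4% to 83.4% of the step by principal transcript. By all exons its median share was 63.1%, 65.1% and 58.9% in lactose-fed, galactose-fed and glucose-fed mice. Pfkp was also the steadiest of the 34 genes: 316 to 421 CPM (median 376) in lactose-fed mice, 327 to 416 CPM (median 367) in galactose-fed mice and 304 to 407 CPM (median 362) in glucose-fed mice. The diets coincided, and the interval of the log2 difference between lactose-fed and galactose-fed mice was −0.09 to 0.10. The liver-type isoform Pfkl was the one that differed.

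Pfkl ranged from 80.5 to 120 CPM (median 101) in lactose-fed mice, from 58.6 to 125 CPM (median 91.5) in galactose-fed mice and from 92.0 to 151 CPM (median 118) in glucose-fed mice. Glucose-fed mice were highest, and 7 of 13 galactose-fed mice lay below every glucose-fed mouse. Pfkl fell by 0.39 in galactose-fed against glucose-fed mice (SE 0.09 on the log2 scale, edgeR adjusted p = 0.00706, lower in 12 of 13 mice). Lactose-fed mice were at −0.23 against glucose-fed mice (SE 0.09, adjusted p = 0.0735), which did not pass. The length-scaled ratio of Pfkp to Pfkl had medians of 3.30 in lactose-fed mice, 3.82 in galactose-fed mice and 2.84 in glucose-fed mice. The muscle isoform Pfkm stayed at 2.69 to 8.21 CPM over all mice and was not called.

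The 4 bifunctional Pfkfb enzymes make and remove the fructose bisphosphate that activates phosphofructokinase. Pfkfb4 held 63.7% to 87.0% of their summed length-scaled level. It ranged from 123 to 188 CPM (median 143) in lactose-fed mice, from 104 to 159 CPM (median 126) in galactose-fed mice and from 94.7 to 166 CPM (median 126) in glucose-fed mice. Lactose-fed mice were highest, with broad overlap. Pfkfb4 rose by 0.23 (SE 0.08 on the log2 scale, edgeR adjusted p = 0.0256) in lactose-fed against galactose-fed mice, higher in 11 of 13 mice. Leaving out galactose 1, galactose 6 or lactose 1 ended this call (0.20, 0.21 and 0.19, with adjusted p of 0.0575, 0.0518 and 0.0568). It also ended with the smooth muscle and fibroblast score in the fit (0.15, adjusted p = 0.388) and on scaling by library totals (0.10, adjusted p = 0.287).

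Pfkfb2, the heart-type enzyme, went the other way. It ranged from 10.3 to 20.4 CPM (median 13.4) in lactose-fed mice, from 11.9 to 20.9 CPM (median 15.6) in galactose-fed mice and from 10.7 to 18.7 CPM (median 14.5) in glucose-fed mice. It fell by 0.32 (SE 0.10 on the log2 scale, edgeR adjusted p = 0.0108) in lactose-fed against galactose-fed mice, lower in 12 of 13 mice. With the smooth muscle and fibroblast score in the fit the difference stayed at −0.33 with a larger SE of 0.12, and the call ended (adjusted p = 0.0800). The kinase-biased Pfkfb3 averaged 34.5 ± 7.77 CPM in lactose-fed mice, 38.4 ± 8.98 CPM in galactose-fed mice and 33.8 ± 9.69 CPM in glucose-fed mice (SD, n = 13 each). Neither it nor Pfkfb1, at 0.485 to 2.00 CPM over all mice, was called.

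Aldolase, triose and phosphoglycerate steps came next, and 3 genes in this stretch, Aldoa, Pgk1 and Pgam1, were called in lactose-fed against galactose-fed mice. Aldoa, the general glycolytic aldolase, ranged from 564 to 807 CPM (median 719) in lactose-fed mice, from 449 to 677 CPM (median 589) in galactose-fed mice and from 546 to 809 CPM (median 753) in glucose-fed mice. Galactose-fed mice stood below both other groups, which lay together, and 9 of 13 lactose-fed mice exceeded every galactose-fed mouse. Aldoa fell by 0.31 in galactose-fed against glucose-fed mice (SE 0.07 on the log2 scale, edgeR adjusted p = 0.00517, lower in 13 of 13 mice). It was 0.30 higher in lactose-fed against galactose-fed mice (SE 0.07, edgeR adjusted p = 0.000919, higher in 12 of 13 mice). This second call ended with the smooth muscle and fibroblast score in the fit (0.27, adjusted p = 0.0542) and on scaling by library totals (0.16, adjusted p = 0.0679). Lactose-fed and glucose-fed mice differed by −0.01, with an interval of −0.15 to 0.13.

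Aldoa made up at least 97.6% of the summed level of Aldoa and the brain-type Aldoc. Aldoc varied from 5.51 to 30.2 CPM over all mice and was not called.

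Pgk1, the phosphoglycerate kinase that makes ATP, ranged from 552 to 825 CPM (median 721) in lactose-fed mice. It ranged from 428 to 661 CPM (median 552) in galactose-fed mice and from 477 to 713 CPM (median 632) in glucose-fed mice. The order was lactose, glucose, galactose, and 10 of 13 lactose-fed mice lay above every galactose-fed mouse. Pgk1 rose by 0.41 in lactose-fed against galactose-fed mice (SE 0.07 on the log2 scale, edgeR adjusted p = 1.16e-05, higher in 13 of 13 mice). In galactose-fed against glucose-fed mice it fell by 0.23 (SE 0.07, edgeR adjusted p = 0.0375, lower in 12 of 13 mice), a call that leaving out any of 13 libraries ended, as did the smooth muscle and fibroblast score (−0.21, adjusted p = 0.137). Lactose-fed mice were at 0.18 against glucose-fed mice (SE 0.07, adjusted p = 0.0608), which did not pass.

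Pgam1, the phosphoglycerate mutase, ranged from 143 to 191 CPM (median 176) in lactose-fed mice, from 141 to 184 CPM (median 151) in galactose-fed mice and from 134 to 198 CPM (median 167) in glucose-fed mice. Ranges overlapped, with galactose-fed mice lowest by median. Pgam1 rose by 0.16 (SE 0.05 on the log2 scale, edgeR adjusted p = 0.0206) in lactose-fed against galactose-fed mice, higher in 11 of 13 mice. The call ended without lactose 4 or galactose 12 (0.14 in each case, with adjusted p of 0.0532 and 0.0537). It also ended with the smooth muscle and fibroblast score (0.13, adjusted p = 0.241) and on scaling by library totals (0.02, adjusted p = 0.806).

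Tpi1 and Gapdh, which lie between aldolase and Pgk1, and Bpgm, which makes the 2,3-bisphosphoglycerate of red cells, were not called. Tpi1 averaged 1124 ± 129 CPM in lactose-fed mice, 1018 ± 111 CPM in galactose-fed mice and 1049 ± 72.3 CPM in glucose-fed mice (SD, n = 13 each). Its log2 difference between lactose-fed and galactose-fed mice was 0.14 (adjusted p = 0.0593), in the direction of its neighbours. Gapdh averaged 3609 ± 367 CPM, 3317 ± 542 CPM and 3513 ± 447 CPM in the same order of diets. The length-scaled ratio of Pgk1 to Gapdh had medians of 0.146 in lactose-fed mice, 0.127 in galactose-fed mice and 0.140 in glucose-fed mice.

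**Figure D3:**
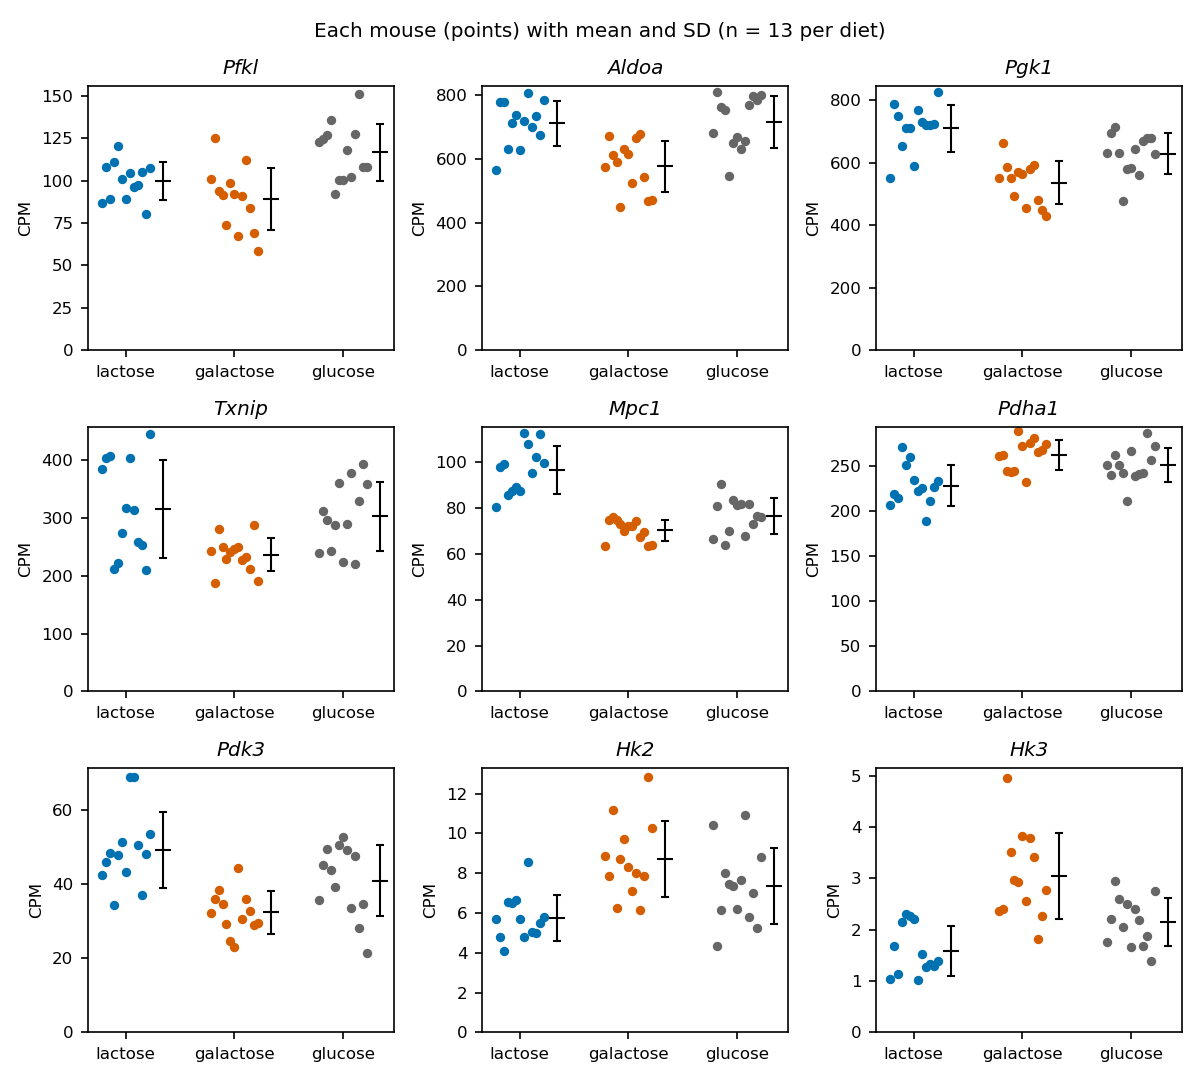
CPM of 9 called genes in each mouse, lactose-fed, galactose-fed and glucose-fed from left to right, with the mean and SD (n = 13 per diet) beside the points; axes start at 0. For Mpc1 every lactose-fed mouse lies above every galactose-fed mouse, whereas the ranges of the other 8 genes overlap.

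The promoters of 4 genes higher in lactose-fed than in galactose-fed mice are shown as examples with and without the core letters bound by hypoxia-inducible factors. They were picked after their values and letters were seen: Pgk1, Aldoa and Pdk3 hold the core and Mpc1 does not. Of the other genes called higher there, Pgam1 holds it and Pfkfb4 and Txnip do not. Sequences are from RefSeq on GRCm38.p6, an earlier build than that of the counts, from 250 bases before to 50 bases after an annotated start, in the direction of the gene. Capitals mark ACGTG, or CACGT where the match is on the other strand.
Pgk1, chrX:106186850-106187149, plus strand: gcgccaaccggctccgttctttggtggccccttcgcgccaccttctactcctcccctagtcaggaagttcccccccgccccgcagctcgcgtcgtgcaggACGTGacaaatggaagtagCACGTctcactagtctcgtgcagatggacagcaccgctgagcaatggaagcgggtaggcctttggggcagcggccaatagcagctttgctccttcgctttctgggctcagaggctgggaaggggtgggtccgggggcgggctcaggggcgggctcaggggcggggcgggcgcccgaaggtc
Aldoa, chr7:126799129-126799428, minus strand: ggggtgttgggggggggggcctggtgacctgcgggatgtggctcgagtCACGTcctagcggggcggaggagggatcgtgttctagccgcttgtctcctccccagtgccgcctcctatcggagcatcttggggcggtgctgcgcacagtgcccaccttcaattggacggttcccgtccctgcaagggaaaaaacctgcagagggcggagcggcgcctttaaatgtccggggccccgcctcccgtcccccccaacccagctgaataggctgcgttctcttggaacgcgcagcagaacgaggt
Pdk3, chrX:93832101-93832400, minus strand: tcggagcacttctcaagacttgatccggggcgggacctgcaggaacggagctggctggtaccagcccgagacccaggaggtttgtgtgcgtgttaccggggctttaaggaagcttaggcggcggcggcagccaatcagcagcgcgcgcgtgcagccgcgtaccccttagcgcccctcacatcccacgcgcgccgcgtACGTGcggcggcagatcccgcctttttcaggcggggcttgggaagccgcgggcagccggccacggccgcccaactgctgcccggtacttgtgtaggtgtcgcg
Mpc1, chr17:8283537-8283836, plus strand: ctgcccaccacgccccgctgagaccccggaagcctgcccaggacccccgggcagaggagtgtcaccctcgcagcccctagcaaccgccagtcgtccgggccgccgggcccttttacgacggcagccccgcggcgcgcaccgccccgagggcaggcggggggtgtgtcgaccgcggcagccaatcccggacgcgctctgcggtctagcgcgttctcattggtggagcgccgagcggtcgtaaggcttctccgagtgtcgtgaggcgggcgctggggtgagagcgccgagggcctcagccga

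The Pgk1 window held 2 copies of the core, those shown for Aldoa and Pdk3 held 1 each, 1 of the 3 Aldoa windows held none, and neither of the 2 annotated Mpc1 windows held it. All 34 genes had a promoter in the table, with 55 windows in all. ACGTG on either strand occurred in a window of 17 of the 34 genes, and in 8 of the 15 genes called in at least 1 comparison. It was held by 21.8% of all 27025 genes with a RefSeq promoter, and by 19.6% of their 32851 windows. A gene counted when any of its windows matched, so genes with more windows had more chances. The core was present in genes that were lower in lactose-fed mice as well, namely Hk1, Hk2, Hk3 and Pfkfb2, and in Ldha and Pkm, which were not called. The E-box CACGTG, which contains the core on both strands, occurred in 5 of the 34 genes, 1 of them called, against 8.09% of all genes. A pair of E-boxes spaced by 5 bases, the form bound by carbohydrate-response factors when exact, was found in 0 of 32851 promoters of the table. A match says only that the letters lie in the window.

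Enolase message was at least 99.2% Eno1, which ranged from 1203 to 1845 CPM (median 1371) in lactose-fed mice, from 1079 to 1582 CPM (median 1321) in galactose-fed mice and from 1179 to 1664 CPM (median 1523) in glucose-fed mice. The groups overlapped and Eno1 was not called. Eno3, the muscle enolase, made up the rest. It ranged from 2.44 to 5.65 CPM (median 3.09) in lactose-fed mice, from 2.95 to 6.79 CPM (median 4.31) in galactose-fed mice and from 2.74 to 6.64 CPM (median 4.04) in glucose-fed mice. Lactose-fed mice were lowest. Eno3 fell by 0.41 against galactose-fed mice (SE 0.14 on the log2 scale, edgeR adjusted p = 0.0222) and by 0.43 against glucose-fed mice (SE 0.14, edgeR adjusted p = 0.0269), in 12 of 13 lactose-fed mice each time. The call against glucose-fed mice ended without glucose 10 (−0.38, adjusted p = 0.0566).

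Pyruvate kinase was mostly Pkm, the muscle and proliferating-cell gene, with 79.9% to 88.1% of the step by principal transcript, and the liver-type gene Pklr made the rest. By all exons the median Pkm share was 73.6%, 72.4% and 75.1% in lactose-fed, galactose-fed and glucose-fed mice. Pkm ranged from 1477 to 2204 CPM (median 1928) in lactose-fed mice, from 1499 to 2297 CPM (median 1659) in galactose-fed mice and from 1580 to 2182 CPM (median 1777) in glucose-fed mice. Pklr averaged 457 ± 61.7 CPM in lactose-fed mice, 435 ± 69.5 CPM in galactose-fed mice and 387 ± 67.9 CPM in glucose-fed mice (SD, n = 13 each). Neither gene was called. Pklr in lactose-fed against glucose-fed mice, at 0.24 (SE 0.09, adjusted p = 0.0533), came nearest of the 19 uncalled genes in that comparison.

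Lactate dehydrogenase was at least 99.5% Ldha, the form favouring lactate production. Ldha ranged from 1787 to 2696 CPM (median 2126) in lactose-fed mice, from 1650 to 2350 CPM (median 1911) in galactose-fed mice and from 1571 to 2299 CPM (median 2107) in glucose-fed mice. The ranges overlapped and Ldha was not called. The lactate exporter gene Slc16a3 averaged 117 ± 15.2 CPM, 105 ± 18.2 CPM and 110 ± 12.2 CPM in lactose-fed, galactose-fed and glucose-fed mice (SD, n = 13 each) and was not called.

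Ldhb, the heart-type lactate dehydrogenase, was the scarcest of the 34 genes and had the widest spread. It ranged from 0.103 to 0.980 CPM (median 0.305) in lactose-fed mice, from 0.227 to 5.94 CPM (median 0.582) in galactose-fed mice and from 0.0996 to 1.37 CPM (median 0.439) in glucose-fed mice. Galactose 1, at 5.94 CPM, and galactose 4, at 2.11 CPM, stood above every lactose-fed and glucose-fed mouse. Galactose 6, at 1.373 CPM, only just passed the highest glucose-fed mouse, at 1.370 CPM. The other galactose-fed mice overlapped with the other groups. The fitted difference between lactose-fed and galactose-fed mice was −1.72 (SE 0.43 on the log2 scale, edgeR adjusted p = 0.00215), with all 13 lactose-fed mice below the galactose-fed mean. Without galactose 1 it was −1.15 (SE 0.36, adjusted p = 0.0145). With the smooth muscle and fibroblast score in the fit it turned to 0.27 (SE 0.35, adjusted p = 0.705).

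In lactose-fed against galactose-fed mice most tested muscle markers were lower, as were Ldhb and Eno3. The 10 smooth muscle markers summed to 83.0 to 271 CPM in lactose-fed mice, 134 to 1027 CPM in galactose-fed mice and 91.7 to 338 CPM in glucose-fed mice, none at 0 throughout. All 10 were called lower in lactose-fed against galactose-fed mice, where 30.9% of all tested genes were called. In each comparison with glucose-fed mice 0 of the 10 were called. Even so, 0 of the 10 leaned higher in lactose-fed against glucose-fed mice, with a median log2 fold change of −0.51. In galactose-fed against glucose-fed mice all 10 leaned higher, with a median of 0.60. Eno3 was called lower in lactose-fed against glucose-fed mice, and the part of muscle in that call was not tested. The 11 skeletal muscle markers summed to 3.13 to 6.09 CPM in lactose-fed mice, 8.50 to 67.3 CPM in galactose-fed mice and 4.81 to 21.2 CPM in glucose-fed mice, and among them the fast-muscle genes Myh4 and Pvalb were at 0 in all mice. Only 3 of them were tested, and in lactose-fed against galactose-fed mice 2 were lower and 1 was higher. Of these 3, Acta1 was the one called in lactose-fed against glucose-fed mice, lower, and in galactose-fed against glucose-fed mice, higher. With the smooth muscle and fibroblast score in the fit, Eno3 came to −0.33 in lactose-fed against galactose-fed mice (adjusted p = 0.275) and to −0.39 in lactose-fed against glucose-fed mice (adjusted p = 0.0877).

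Among the 34 genes, the one separation of diets without overlap was that of Mpc1. Mpc1, a subunit of the mitochondrial pyruvate carrier, ranged from 80.5 to 113 CPM (median 97.9) in lactose-fed mice, from 63.3 to 76.1 CPM (median 72.2) in galactose-fed mice and from 63.8 to 90.6 CPM (median 76.7) in glucose-fed mice. Every lactose-fed mouse lay above every galactose-fed mouse, the only pair of groups among the 34 genes without overlap, and 8 of 13 lay above every glucose-fed mouse. Among other genes given below, G6pdx, Slc16a1 and Egln3 also did not overlap between lactose-fed and galactose-fed mice. The share of all tested genes without overlap was not counted. Mpc1 rose by 0.46 in lactose-fed against galactose-fed mice (SE 0.05 on the log2 scale, edgeR adjusted p = 5.17e-08). It rose by 0.34 in lactose-fed against glucose-fed mice (SE 0.05, edgeR adjusted p = 6.67e-05, higher in 13 of 13 mice). Galactose-fed mice were at −0.12 against glucose-fed mice (SE 0.05, adjusted p = 0.202), which did not pass.

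Its partner Mpc2 did not follow. Mpc2 ranged from 78.7 to 130 CPM (median 105) in lactose-fed mice, from 82.3 to 117 CPM (median 101) in galactose-fed mice and from 80.2 to 123 CPM (median 104) in glucose-fed mice. The groups coincided, and the interval of the log2 difference between lactose-fed and galactose-fed mice was −0.09 to 0.19. The length-scaled ratio of Mpc1 to Mpc2 had medians of 0.969 in lactose-fed mice, 0.744 in galactose-fed mice and 0.779 in glucose-fed mice. Which subunit leads depends on the transcript length used: the median Mpc1 share of the pair was 49.2%, 42.7% and 43.8% in lactose-fed, galactose-fed and glucose-fed mice by principal transcript, and 76.2%, 71.0% and 71.97% by all exons. A processed copy, Mpc1-ps, held 9729 reads against 65163 for Mpc1, and how the counting divided shared reads is not given in the sources used here. Mpc1-ps was also higher in lactose-fed mice, by 0.49 against galactose-fed mice (edgeR adjusted p = 2.69e-05) and by 0.35 against glucose-fed mice (edgeR adjusted p = 0.00417).

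Within pyruvate dehydrogenase, the alpha subunit gene Pdha1 was lower where Mpc1 was higher. Pdha1 ranged from 188 to 271 CPM (median 225) in lactose-fed mice, from 232 to 288 CPM (median 265) in galactose-fed mice and from 211 to 286 CPM (median 250.3) in glucose-fed mice. Lactose-fed mice were lowest, and 8 of 13 lay below every galactose-fed mouse. Pdha1 fell by 0.20 in lactose-fed against galactose-fed mice (SE 0.05 on the log2 scale, edgeR adjusted p = 0.0014, lower in 12 of 13 mice). Against glucose-fed mice the difference was −0.14 (SE 0.05, edgeR adjusted p = 0.0463, lower in 10 of 13 mice), and leaving out any of 17 libraries ended that call, as did the smooth muscle and fibroblast score (−0.15, adjusted p = 0.0728). The beta subunit gene Pdhb averaged 112 ± 13.6 CPM in lactose-fed mice, 111 ± 12.3 CPM in galactose-fed mice and 116 ± 13.0 CPM in glucose-fed mice (SD, n = 13 each) and was not called. Pdha1 shares 603 exonic bases with Map3k15, which held 1423 reads against 200016. The length-scaled ratio of Pdha1 to Mpc1 had medians of 0.751 in lactose-fed mice, 1.26 in galactose-fed mice and 1.12 in glucose-fed mice.

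Among the 3 pyruvate dehydrogenase kinase genes of the set, which do not include Pdk4, Pdk2 held 59.3% to 82.9% of the summed level. Pdk2 ranged from 128 to 229 CPM (median 165) in lactose-fed mice, from 109 to 213 CPM (median 170) in galactose-fed mice and from 88.9 to 214 CPM (median 161) in glucose-fed mice, and was not called. Pdk3 was the one called. It ranged from 34.5 to 69.1 CPM (median 48.1) in lactose-fed mice, from 23.0 to 44.6 CPM (median 32.2) in galactose-fed mice and from 21.6 to 52.8 CPM (median 43.9) in glucose-fed mice. Galactose-fed mice were lowest, and 9 of 13 lactose-fed mice lay above all of them. Pdk3 rose by 0.61 in lactose-fed against galactose-fed mice (SE 0.12 on the log2 scale, edgeR adjusted p = 0.000126, higher in 13 of 13 mice). The other comparisons did not pass, at −0.34 in galactose-fed against glucose-fed mice (adjusted p = 0.0889) and 0.27 in lactose-fed against glucose-fed mice (adjusted p = 0.106). Its median share of Pdk1, Pdk2 and Pdk3 was 22.6% in lactose-fed mice, 15.7% in galactose-fed mice and 19.8% in glucose-fed mice. The hypoxia-inducible Pdk1 averaged 33.4 ± 4.42 CPM, 36.7 ± 6.51 CPM and 37.1 ± 6.93 CPM in lactose-fed, galactose-fed and glucose-fed mice (SD, n = 13 each) and was not called.

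**Figure D4:**
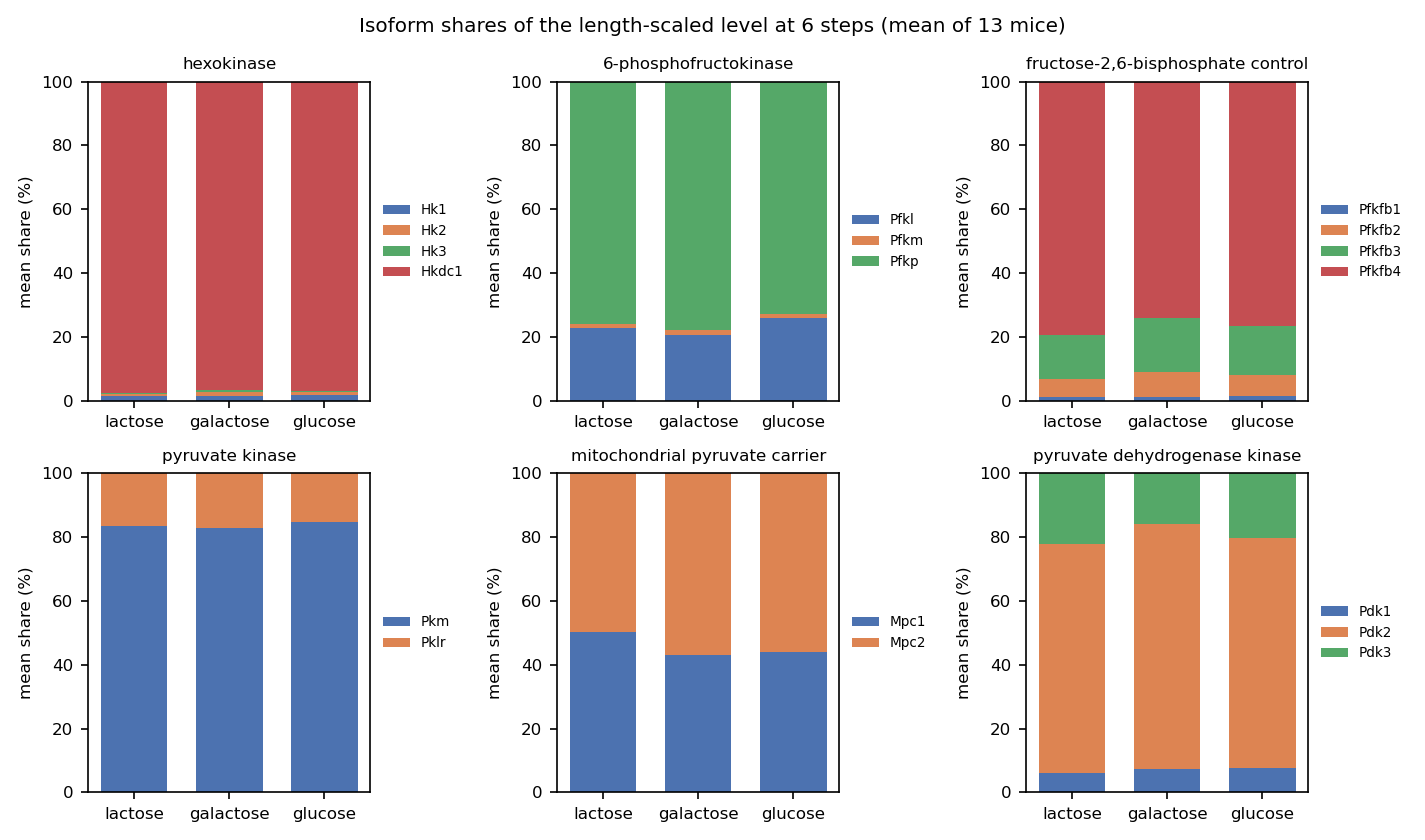
Mean share (percent, n = 13 mice per diet) of each isoform in the summed CPM per kilobase of its step, for lactose-fed, galactose-fed and glucose-fed mice from left to right. A single isoform leads hexokinase, phosphofructokinase, fructose bisphosphate control, pyruvate kinase and, among Pdk1 to Pdk3, pyruvate dehydrogenase kinase in each diet. The Mpc1 share is highest in lactose-fed mice, and the sizes of the shares depend on the transcript length used.

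Txnip, which restrains glucose uptake and is induced by glucose phosphates through carbohydrate-response factors, ranged from 209.5 to 445 CPM (median 315) in lactose-fed mice. It ranged from 188 to 287 CPM (median 240.5) in galactose-fed mice and from 221 to 394 CPM (median 297) in glucose-fed mice. Galactose-fed mice were lowest and least variable, and 7 of 13 lactose-fed mice exceeded all of them. Txnip rose by 0.41 in lactose-fed against galactose-fed mice (SE 0.11 on the log2 scale, edgeR adjusted p = 0.00497, higher in 10 of 13 mice). The smooth muscle and fibroblast score in the fit ended this call (0.30, adjusted p = 0.209). In galactose-fed against glucose-fed mice it was at −0.35 (SE 0.11, adjusted p = 0.0653), which did not pass, although all 13 galactose-fed mice lay below the glucose-fed mean. An antisense gene, Gm15441, shares 606 exonic bases with Txnip but held only 1439 reads against 229352, and the strand setting of the counting is not given in the sources used here.

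The 19 genes never called had small differences. Their log2 fold changes ran from −0.14 (Eno1) to 0.35 (Aldoc) in galactose-fed against glucose-fed mice, from −0.23 (Pfkm) to 0.38 (Aldoc) in lactose-fed against glucose-fed mice and from −0.26 (Pfkm) to 0.16 (Slc16a3) in lactose-fed against galactose-fed mice. The 95% interval lay within 0.5 of zero for 18, 16 and 17 of them in these comparisons. The genes whose intervals reached further were Aldoc in each comparison, Pfkm in both comparisons of lactose-fed mice and Pfkfb1 in lactose-fed against glucose-fed mice.

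Other enzymes of the same chemistry, listed with earlier results of these data known, are given for context. Over all tested genes 4.07% were called in galactose-fed against glucose-fed mice. The share was 15.6% in lactose-fed against glucose-fed mice and 30.9% in lactose-fed against galactose-fed mice. Of 15 tested genes of glycolysis and lactate handling, G6pdx, the entry enzyme of the pentose phosphate pathway, was the one called in galactose-fed against glucose-fed mice, where it fell by 0.58 (SE 0.12, edgeR adjusted p = 0.0021). In lactose-fed against glucose-fed mice G6pdx rose by 0.43 (SE 0.12, edgeR adjusted p = 0.00992), and 2 genes fell, Slc16a1, a lactate and pyruvate transporter, and Adpgk. In lactose-fed against galactose-fed mice G6pdx and Gpd1 rose, and Slc16a1 and Slc16a7 fell. G6pdx ranged there from 154 to 279 CPM in lactose-fed mice and from 71.0 to 148 CPM in galactose-fed mice, without overlap, a log2 difference of 1.01 (SE 0.12, edgeR adjusted p = 3.45e-08). Slc16a1 did not overlap either, at 57.1 to 93.2 CPM in lactose-fed mice and 97.4 to 147 CPM in galactose-fed mice, and fell by 0.56 (SE 0.09, edgeR adjusted p = 8.35e-06).

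Around pyruvate and the citrate cycle, 15 further genes were tested. Me1, the cytosolic malic enzyme that makes pyruvate and NADPH, fell by 0.94 in galactose-fed against glucose-fed mice (SE 0.15, edgeR adjusted p = 9.45e-05). It was the one gene of the list called there (6.67%, against 4.07% of all tested genes). In lactose-fed against glucose-fed mice 4 rose and 0 fell (Cs, Me2, Pcx and Gpt), and 11 were not called. The called genes were 26.7% of the list, against 15.6% of all tested genes. Cs, citrate synthase, rose by 0.23 in this comparison (SE 0.05, edgeR adjusted p = 0.00242). In lactose-fed against galactose-fed mice 5 rose and 1, the pyruvate dehydrogenase phosphatase gene Pdp1, fell (40% called, against 30.9% of all tested genes). Me1 was highest among them, with 1.15 (SE 0.15, edgeR adjusted p = 2.12e-07). Pdk4, the fasting-induced kinase, varied from 19.1 to 572 CPM over all mice and was not called.

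Regulators and further hypoxia-inducible genes are read against the shares of all tested genes called, 30.9% in lactose-fed against galactose-fed mice, 15.6% in lactose-fed against glucose-fed mice and 4.07% in galactose-fed against glucose-fed mice. Of 17 regulators, 6 rose and 2 fell in lactose-fed against galactose-fed mice, 3 rose and 1 fell in lactose-fed against glucose-fed mice, and 1 rose and 1 fell in galactose-fed against glucose-fed mice. The oxygen-sensing prolyl hydroxylase gene Egln3 was called in all 3 comparisons. It ranged from 93.9 to 164 CPM in lactose-fed mice, from 40.8 to 87.9 CPM in galactose-fed mice and from 58.5 to 122 CPM in glucose-fed mice, with no overlap between lactose-fed and galactose-fed mice (1.04, SE 0.11, edgeR adjusted p = 8.88e-09). Among carbohydrate-response factors, Mlx rose by 0.32 (SE 0.05, edgeR adjusted p = 3.11e-06) and Mlxipl fell by 0.37 (SE 0.10, edgeR adjusted p = 0.00412) in lactose-fed against galactose-fed mice. Of 18 targets of hypoxia-inducible factor 1 outside glycolysis, 7 rose and 1 fell in lactose-fed against galactose-fed mice, and 3 rose and 1 fell in lactose-fed against glucose-fed mice. Ndrg1 rose most in the first of these (1.32, SE 0.22, edgeR adjusted p = 1.13e-05), followed by Bnip3 (1.03, SE 0.16, edgeR adjusted p = 4.24e-06). In galactose-fed against glucose-fed mice 0 of the 18 were called by edgeR, DESeq2 or limma voom, and 5 had an unadjusted edgeR p below 0.05. The smallest p-values there were those of Higd1a (−0.25, adjusted p = 0.101) and Bnip3 (−0.42, adjusted p = 0.115). With the smooth muscle and fibroblast score in the fit, 3 of these 18 targets, 3 of the 17 regulators and 6 of the 34 genes were called in lactose-fed against galactose-fed mice, where 9.68% of all tested genes were called in that fit.

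The sample titles fall into 2 runs of numbers, 1 to 18 and 49 to 69, whose meaning the labels do not give, with 6 and 7 mice per diet. Of the 23 calls, 22 had a value in both runs, and all 22 had the same sign in each. The calls came from a fit of both runs together, so the shared sign is not an independent check. Fewer passed within a run, 5 in the first and 11 in the second. A test of whether the diet difference changed between the runs called 0 of 102 values of the 34 genes by edgeR, and 12 had an unadjusted p below 0.05.

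**Figure D5:**
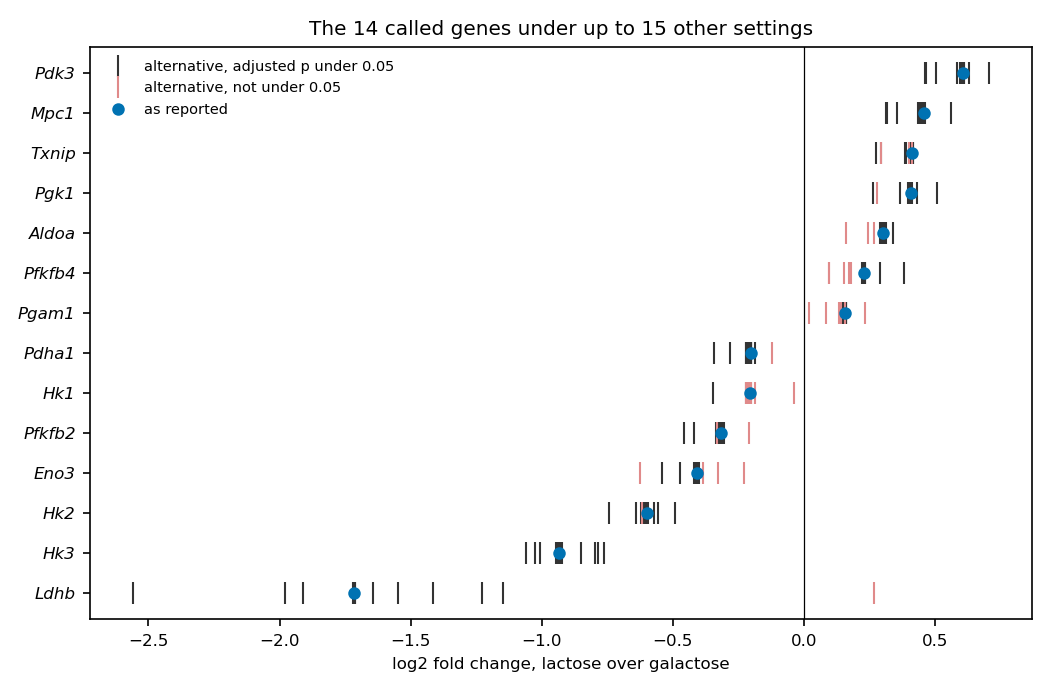
Log2 fold change, lactose-fed over galactose-fed mice, of the 14 called genes as reported (blue points) and under up to 15 other settings (bars, dark where the adjusted p was below 0.05). Hk3, Mpc1 and Pdk3 passed in all 15 settings, and Ldhb has 1 setting, with the smooth muscle and fibroblast score, on the other side of 0.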

How the data were processed

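Per the submitters' processing notes, reads were checked with FastQC, aligned with STAR to GRCm39 and counted with HTSeq. The authors deposited raw read counts per gene for each mouse. Versions and the strand setting are not given in the sources used here. The labels give 39 separate mice. The 5 summary lines of each file, which held 10.1% to 15.7% of entries, stayed out of library sizes and tests. No pair of libraries was identical (0 pairs), and 52073 of 56980 gene IDs matched a symbol.

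Counts were tested with edgeR 4.0.16 (R 4.3.3): filterByExpr by diet, TMM factors, and the quasi-likelihood F test over all 39 libraries, with Benjamini-Hochberg adjustment over 14658 genes and a threshold of 0.05. CPM were computed here with TMM factors, and CPM per kilobase with the longest principal transcript of a GRCm38 annotation. Isoform shares rest on these lengths and shift when the length of all exons is used. SE is the log2 fold change over the square root of F, and intervals are 95%. Alternatives used DESeq2 1.42.0, limma 3.58.1 voom, other scalings, filters and samples.

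The 34 genes and all lists were chosen with earlier results of these data known. Full values are given for genes called in at least 1 comparison and for the main isoform of each step, and of other lists for called genes of smallest p (up to 4 per list and comparison, or the 2 of smallest p where none was called). A gene of the list of other glycolysis and lactate enzymes is not reported here.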

Additional observations from a re-analysis of the deposited data

How the results depend on the processing

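As reported, 4 of the 34 genes were called in galactose-fed against glucose-fed mice, 5 in lactose-fed against glucose-fed mice, 14 in lactose-fed against galactose-fed mice and 14 for any difference. In that order of comparisons, title numbers 1 to 18 alone gave 0, 0, 5 and 1 calls by edgeR, and title numbers 49 to 69 alone gave 1, 2, 8 and 9. Over all tested genes the shares called also fell, to 0.49%, 0.122%, 6.47% and 3.47% with the first and 1.22%, 13.7%, 20% and 21.6% with the second. A smooth muscle and fibroblast score as a covariate, chosen after seeing the data, gave 2, 1, 6 and 6, against 1.64%, 8.74%, 9.68% and 11.9% of all tested genes. In galactose-fed against glucose-fed and lactose-fed against glucose-fed mice, no filter on low counts gave 2 and 1 calls, and leaving out the 7 libraries with high interferon-response genes gave 2 and 1. In lactose-fed against glucose-fed mice DESeq2 gave 8, limma voom 3 and a crypt score, chosen after seeing the data, 3. The cause was not tested, beyond fewer mice in the title-number subsets. The one reversal was Ldhb in lactose-fed against galactose-fed mice, at 0.27 with the smooth muscle and fibroblast score. Leaving out each of the 39 libraries in turn gave 2 to 5, 2 to 6, 12 to 15 and 12 to 14 calls. The first count fell to 2 without glucose 1, 2, 8, 10, 11 or 12 or galactose 5 or 13. The second fell to 3 without glucose 1, 4, 6, 9, 10 or 13 or lactose 2, 9, 10, 11 or 12, and to 2 without lactose 3, 8 or 13.

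Hk3, Mpc1 and Pdk3 in lactose-fed against galactose-fed mice passed in all 15 settings other than leaving out 1 library. Over those settings, 259 of 342 recomputed calls passed again, 82 did not and 1 reversed. Title numbers group mice into triplets with 1 mouse per diet. The replicate numbers, given in accession order, coincide with these triplets in all 39 libraries, but the labels do not say what a triplet shares. With the triplet as a block, the counts were 4, 5, 14 and 14. Ldhb had no value under the stricter filter, the 2-diet fit or title numbers 49 to 69. Scaling by library totals moved the median of all genes in lactose-fed against glucose-fed mice to −0.13. Low depth limits Ldhb most, with 2 to 5 reads in its lowest libraries.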
